A study of Arabidopsis thaliana with 38 samples.

Results

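RNA recovered by immunopurification of CSP1 (CSP1-IP) was set against total RNA in rosettes of the Arabidopsis thaliana line 35S:AtCSP1-FH#11 (CSP1-FH) kept in non-stress conditions. The comparison rests on 4 of the 38 arrays of the series, 2 CSP1-IP and 2 total RNA, and on all 22746 probe sets of the array that are not controls. It was made on the deposited values and again after cyclic loess scaling of the arrays. CSP1-FH expresses a tagged form of the cold shock domain protein CSP1 from the 35S promoter, a strong promoter that is active in nearly all plant cells, and a single transgenic line was used. Further groups served as a check of the comparison: polysomal RNA of CSP1-FH in non-stress (2 arrays), CSP1-IP and total RNA of CSP1-FH after 12 h at 4 °C (2 arrays each), CSP1-IP, total and polysomal RNA of the line 35S:HF-RPL18 in non-stress (HF-RPL18, 3 arrays each), and polysomal and total RNA of the mutant atcsp1-1 in non-stress (2 arrays each). HF-RPL18 expresses a tagged ribosomal protein from the same promoter, and its label names no CSP1 transgene. Leaves for CSP1-IP were cross-linked with formaldehyde, and the extract was held on antibody-coated beads. All plants were 25-day-old Col-0 grown in soil. Non-stress plants stood at 23 °C and the cold chamber had lower light (50 instead of 100 µE per s and m2). CSP1-IP arrays of atcsp1-1 or of beads without antibody were not analysed here, so RNA bound by CSP1 and RNA held by the beads cannot be told apart.

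CSP1 belongs to the plant cold shock domain proteins, which join the nucleic-acid-binding domain of the bacterial cold shock proteins to zinc knuckles of the CCHC type. Proteins of this family bind RNA and can act as RNA chaperones, that is, they can open base-paired stretches of RNA that would hinder translation. Cytosolic ribosomes are built from a small 40S and a large 60S subunit, each made of RNA and many proteins whose genes lie in the nucleus. Chloroplasts keep a small genome of their own, from which subunits of the photosystems, the ATP synthase, the NDH complex and the plastid ribosome are made, mostly as transcripts that cover several genes.

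The 2 CSP1-IP arrays differed from total RNA in more than single genes. Their values had SDs over probe sets of 2.01 and 1.91 (log2), against 2.29 and 2.27 on the 2 total arrays. The GAPDH control probe set at the 3′ end exceeded that at the 5′ end by 5.89 and 6.86 on the CSP1-IP arrays, against 1.11 and 1.99 on the total arrays (log2). The ubiquitin control gave 3.44 and 3.84 for CSP1-IP, against 1.41 and 1.57 for total RNA, and the actin control gave 2.78 and 3.00 against 3.59 and 4.06. Per the labels' protocols, 3 to 6 ng of immunopurified RNA was amplified, against an amount of 150 without a unit for total RNA. The part of these differences in the results below was not tested. The CSP1-IP replicates correlated at r = 0.94 over probe sets and the total replicates at r = 0.99, and in the fit a CSP1-IP array had a weight of 0.327, against 1.79 for a total array. No detection calls were used here, and 59.4% of the probe sets carry 1 gene name. CSP1 itself has no named probe set, so the level of the bait was not checked.

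Of 131 probe sets for cytosolic ribosomal proteins 39 were higher and 2 lower in CSP1-IP than in total RNA, and of 35 for nuclear-encoded respiratory proteins 15 were higher and 6 lower. Of 69 plastid-encoded probe sets 28 were lower and 0 higher, and the other members of these lists did not pass. In all, limma called 5744 of 22746 probe sets at an adjusted p below 0.05 (25.3%), 2920 higher (12.8%) and 2824 lower (12.4%) in CSP1-IP. After loess scaling it called 3441 (15.1%), 1943 higher (8.54%) and 1498 lower (6.59%). Calls made in both scalings numbered 1283 higher and 1403 lower, and 0 probe sets were called in opposite directions. The arrays of the groups did not overlap for 42.9% of probe sets with CSP1-IP above and 27.5% with CSP1-IP below. The counts depended on single immunopurification arrays: without CSP1-IP replicate 2, 708 probe sets were called higher and 937 lower, and without CSP1-IP replicate 1, 1807 and 1925. Of the 90 named genes past the threshold, 47 lost the call without CSP1-IP replicate 2, 26 without CSP1-IP replicate 1, 14 without total replicate 2 and 8 without total replicate 1.

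The difference depended on the level of the probe set. With the deposited values the median difference over all probe sets was 0.20, and it was 0.40 among the 4738 probe sets with a mean of up to log2 3 over the 38 arrays. It was −0.44 for means of 6 to 7 and −0.95 for means of 9 to 10. After loess scaling these medians were 0.00, −0.05, 0.06 and −0.15. Of the higher calls on the deposited values, 73.9% had a mean below log2 5, against 6.83% of the lower calls and 56.8% of all probe sets. Gene groups are therefore given in both scalings, and the brighter ones also beside the 1126 probe sets with a mean above log2 9, whose median difference was −0.81 (9.95% called higher, 42.9% lower) before and 0.00 (24.1% higher, 20.8% lower) after loess scaling.

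**Figure D1:**
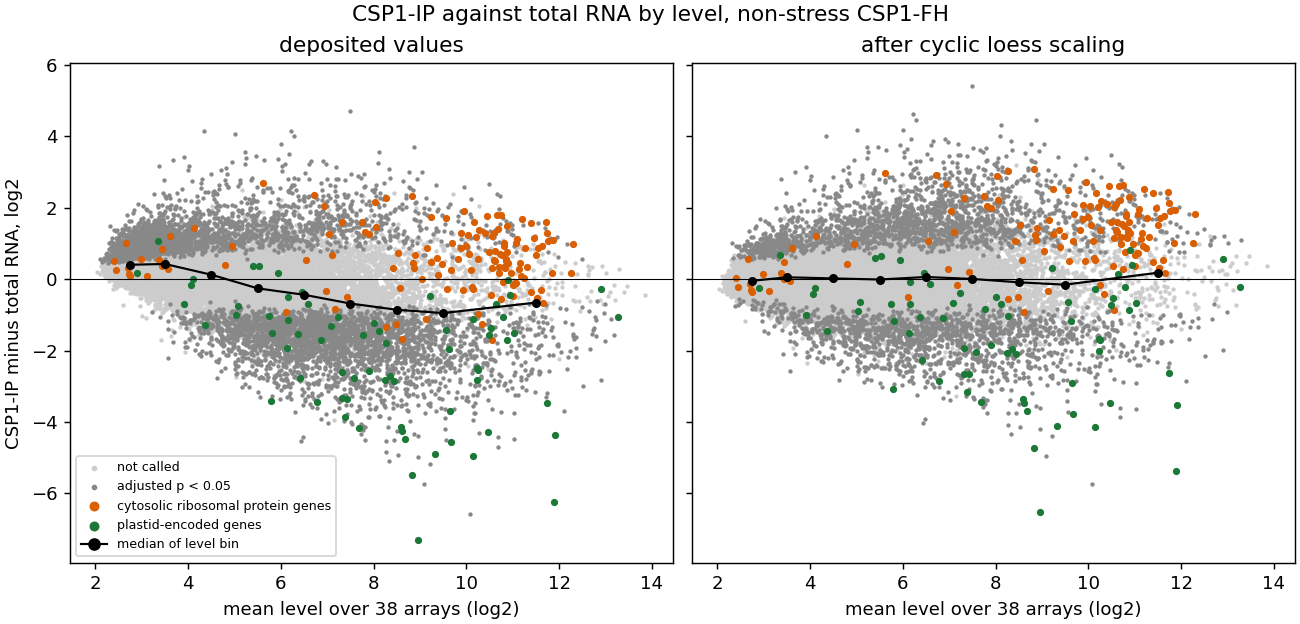
Difference between CSP1-IP and total RNA (log2, y axis) against the mean level over the 38 arrays (log2, x axis) for 22746 probe sets, with deposited values on the left and after cyclic loess scaling on the right. Black points are medians of level bins, which run between 0.43 and −0.95 on the left and between −0.15 and 0.18 on the right. Most cytosolic ribosomal protein genes (orange) lie above 0 and most plastid-encoded genes (green) below 0 in both panels.

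The largest excess among named genes was that of DI21, a gene named for its induction by drought. DI21 had values of 10.08 and 11.02 in CSP1-IP, against 5.91 and 5.77 in total RNA (log2). Both CSP1-IP arrays thus lay far above both total arrays, and the difference was 4.71 (SE 0.76, adjusted p = 6.95e-05, limma), or 26.2-fold. After loess scaling it was 5.42, or 42.8-fold. AT2G35750 had a smaller difference with less spread, at 9.73 and 9.36 in CSP1-IP, against 5.38 and 5.39 in total RNA (difference 4.16, SE 0.32, adjusted p = 2.2e-09). AT1G70270 had 7.40 and 7.70 in CSP1-IP, against 3.71 and 3.07 in total RNA, a difference of 4.16 as well (SE 0.72). The files and reference tables attach no product to the last pair, and the same holds for AT1G78480 (4.08), AT5G42060 (3.55), AT5G57785 (3.49), AT2G20480 (3.43), AT4G22160 (3.40), AT1G67910 (3.38), AT5G51620 (3.33), AT5G64180 (3.31) and AT3G57320 (3.30).

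3 of the 15 largest excesses belong to known families. RALFL32, of the RALF-like family of small secreted signalling peptides, had 9.62 and 10.06 in CSP1-IP, against 6.68 and 6.54 in total RNA (difference 3.23, SE 0.60, adjusted p = 0.000306). TBL36, of the trichome birefringence-like family that acts on acetyl groups of cell wall polysaccharides, had 8.36 and 9.94 in CSP1-IP, against 5.85 and 6.01 in total RNA (difference 3.22, SE 0.61). AT1G54050, listed here with the heat shock proteins, had 8.61 and 9.02 in CSP1-IP, against 5.78 and 5.41 in total RNA (difference 3.22, SE 0.47). All 15 were also called after loess scaling. Without CSP1-IP replicate 2 the calls of AT5G42060 (2.77, adjusted p = 0.136), AT5G64180 (2.77, adjusted p = 0.102) and TBL36 (2.44, adjusted p = 0.0689) were lost.

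Of the 15 largest deficits, 12 were plastid-encoded genes. ndhA, a membrane subunit of the plastid NDH complex, had 3.73 and 3.54 in CSP1-IP, against 10.91 and 10.98 in total RNA. The replicates lay close together in both groups, and the difference was −7.31 (SE 0.46, adjusted p = 1.43e-10), or −6.53 after loess scaling. No fold is given, since the CSP1-IP values were not shown to be above background. atpB, the beta subunit of the chloroplast ATP synthase, had 7.69 and 6.01 in CSP1-IP, against 12.78 and 13.38 in total RNA (difference −6.23, SE 0.45, adjusted p = 1.77e-09, −5.39 after loess scaling). psbE, a subunit of cytochrome b559 in photosystem II, had 4.78 and 5.35 in CSP1-IP, against 10.40 and 10.73 in total RNA (difference −5.50, SE 0.45).

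The total RNA replicates differed from each other for some plastid genes. petB, which encodes cytochrome b6, had 5.97 and 6.65 in CSP1-IP, against 10.64 and 11.89 in total RNA (difference −4.95, SE 0.51). atpA, the alpha subunit of the chloroplast ATP synthase, had 4.65 and 5.23 in CSP1-IP, against 8.58 and 11.12 in total RNA (difference −4.91, SE 1.03). psbC, a core antenna protein of photosystem II, had 4.46 and 5.10 in CSP1-IP, against 7.91 and 10.61 in total RNA (difference −4.48, SE 1.07). In each of these, total replicate 1 lay well below total replicate 2. The other plastid genes among the 15 were psbK (−4.57), ndhI (−4.36), psbF (−4.28), rpl22 (−4.25), psbH (−4.18) and cemA (−4.13).

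The 3 nuclear genes among the largest deficits were AT1G51110, AT3G14067 and AT1G62780, none with a product in the tables. AT1G51110 had 3.76 and 3.92 in CSP1-IP, against 8.35 and 8.41 in total RNA (difference −4.54, SE 0.58, adjusted p = 4.45e-06). AT3G14067 showed a difference of −3.93 (SE 0.44) and AT1G62780 one of −3.87 (SE 0.80). All 15 deficits were called after loess scaling too. The call of psbC was lost without CSP1-IP replicate 1 (−4.16, adjusted p = 0.0571), and those of cemA (−4.05, adjusted p = 0.0914) and AT1G62780 (−3.23, adjusted p = 0.0736) without CSP1-IP replicate 2.

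**Figure D2:**
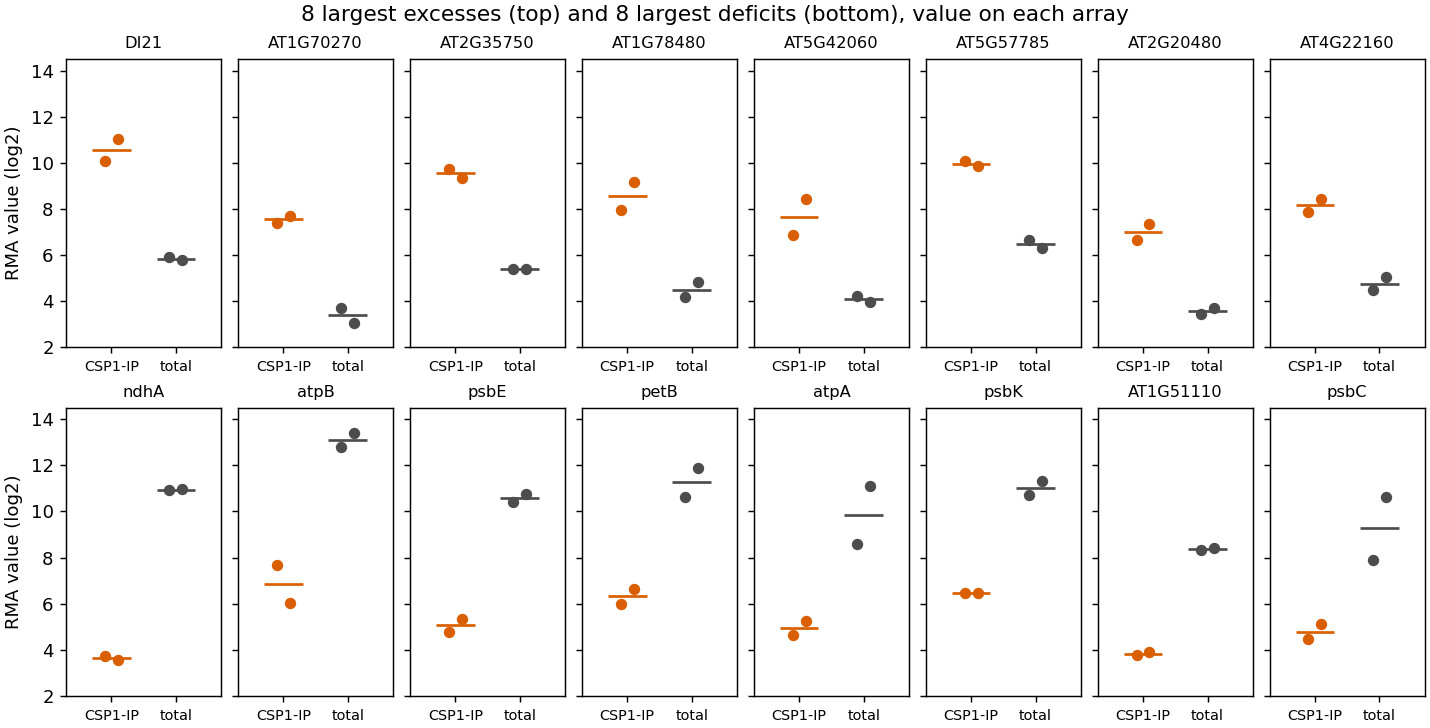
Deposited log2 value on each array for the 8 largest excesses (top row) and the 8 largest deficits (bottom row) among named genes, with the 2 CSP1-IP arrays left of the 2 total RNA arrays and a line at each group's mean. Genes were chosen among those whose groups do not overlap, and the total replicates of atpA (8.58 and 11.12) and psbC (7.91 and 10.61) stand far apart.

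Cytosolic ribosomal proteins form the longest gene list. Of its 131 probe sets 29.8% were higher and 1.53% lower in CSP1-IP, and 104 had a positive difference. The median was 0.56, against 0.20 for all probe sets. After loess scaling 70 were higher and 0 lower, with a median of 1.28 against 0.00. Among the 88 members with a mean above log2 9, 25 were higher (28.4%) and 1 lower, against 9.95% and 42.9% of all probe sets that bright. The list medians by array were 10.51 and 10.58 in CSP1-IP, against 10.14 and 9.80 in total RNA. Without CSP1-IP replicate 2 the count of higher members was 7, and without CSP1-IP replicate 1 it was 23. Many of these genes have near-identical copies, so that probe sets may share transcripts of several copies.

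Proteins of the ribosomal stalk, which recruits translation factors to the 60S subunit, include the 2 largest differences of the group on the deposited values. After loess scaling the 60S members AT2G19740 (3.10) and AT3G13580 (3.03) lay above AT2G40010 (2.97) and AT3G28500 (2.93). AT2G40010 had 8.00 and 7.51 in CSP1-IP, against 5.19 and 4.94 in total RNA (difference 2.69, SE 0.46, adjusted p = 0.000145). AT3G28500 had 7.29 and 8.67 in CSP1-IP, against 5.46 and 5.80 in total RNA (difference 2.35, SE 0.80, adjusted p = 0.032). Its CSP1-IP replicates stood well apart, and the call was lost without CSP1-IP replicate 1 (adjusted p = 0.0583), without CSP1-IP replicate 2 (adjusted p = 0.406) and without total replicate 1 (adjusted p = 0.0736). In all, 10 of 13 stalk probe sets were higher after loess scaling (76.9%, against 8.54% of all probe sets) and 0 lower (median 1.36). On the deposited values 4 were higher (30.8%, against 12.8%) and 0 lower (median 0.56). AT2G27720 (1.15, adjusted p = 0.0183) and AT3G09200 (1.08, adjusted p = 0.0223) were the other higher members. The call of AT2G27720 was lost without CSP1-IP replicate 1 (adjusted p = 0.0786) and without CSP1-IP replicate 2 (adjusted p = 0.215). That of AT3G09200 was lost without CSP1-IP replicate 1 (adjusted p = 0.166), CSP1-IP replicate 2 (adjusted p = 0.137) or total replicate 2 (adjusted p = 0.0615).

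Members of the 60S subunit proper showed 24 higher (34.3%) and 0 lower of 70 probe sets, with a median of 0.76. Of all probe sets 12.8% were higher and 12.4% lower. Among the 50 members with a mean above log2 9, 32.0% were higher and 0 lower, against 9.95% and 42.9% of all that bright. After loess scaling 41 of the 70 were higher (58.6%, against 8.54% of all) and 0 lower, with a median of 1.44. AT2G19740 had 10.23 and 11.01 in CSP1-IP, against 8.55 and 8.05 in total RNA (difference 2.32, SE 0.57, adjusted p = 0.00409). AT3G02190 had 9.49 and 9.55 in CSP1-IP, against 7.40 and 7.34 in total RNA (difference 2.15, SE 0.38, adjusted p = 0.000167). Its replicates were close in both groups, and without any single array its difference ran from 2.12 to 2.18. AT3G13580 (2.27, adjusted p = 0.00724) and AT3G55170 (2.04, adjusted p = 0.000338) were higher as well. Without CSP1-IP replicate 2 the differences were 1.93 for AT2G19740, 1.79 for AT3G13580 and 1.99 for AT3G55170. The range over all 70 ran from −1.33 to 2.32.

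Members of the 40S subunit were called in both directions, more often higher than lower. Of 48 probe sets 11 were higher (22.9%) and 2 lower (4.17%, median 0.42), against 12.8% and 12.4% of all probe sets. Among the 30 members with a mean above log2 9, 23.3% were higher and 3.33% lower, against 9.95% and 42.9% of all that bright. After loess scaling 19 of the 48 were higher (39.6%, against 8.54% of all) and 0 lower (median 1.06). AT4G39200 had 12.71 and 13.11 in CSP1-IP, against 11.56 and 11.06 in total RNA (difference 1.60, SE 0.40, adjusted p = 0.00428), and AT4G34555 showed a difference of 1.59 (adjusted p = 0.0051). Without CSP1-IP replicate 2 the difference of AT4G39200 was 1.40, and without CSP1-IP replicate 1 that of AT4G34555 was 1.38. AT3G04840 had 9.96 and 8.31 in CSP1-IP, against 11.16 and 10.51 in total RNA (difference −1.70, SE 0.53, adjusted p = 0.0209). AT2G17360 was lower too (−1.68, adjusted p = 0.0347). Neither of the lower members passed after loess scaling, where their differences were −0.87 (adjusted p = 0.249) and −0.91 (adjusted p = 0.297). The difference between the subunits was not tested.

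Nuclear genes of the mitochondrial respiratory chain and ATP synthase were called in both directions, more often higher than lower. Of 35 probe sets 15 were higher (42.9%) and 6 lower (17.1%), against 12.8% and 12.4% of all probe sets, with a median of 0.59. After loess scaling 22 were higher (62.9%) and 2 lower (5.71%), against 8.54% and 6.59% of all, with a median of 1.33. AT2G01090 had 9.55 and 10.87 in CSP1-IP, against 7.31 and 7.24 in total RNA (difference 2.93, SE 0.34, adjusted p = 1e-06, 3.67 after loess scaling). AT5G47890 (2.02, adjusted p = 2.15e-05) and AT5G18800 (1.91, adjusted p = 5.36e-05) were higher as well. In the opposite direction AT5G47030 had 8.16 and 6.49 in CSP1-IP, against 9.80 and 9.51 in total RNA (difference −2.33, SE 0.42, adjusted p = 0.000254). The mean difference of AT5G47030 depended on CSP1-IP replicate 2, without which it was −1.49 (adjusted p = 0.0924). Among the 21 members with a mean above log2 9, 8 were higher (38.1%) and 5 lower (23.8%), against 9.95% and 42.9% of all that bright. After loess scaling 66.7% of these members were higher and 9.52% lower, against 24.1% and 20.8%.

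Genes encoded in the mitochondrion itself were called at the rate of all probe sets. Of 23 probe sets, 3 were higher (13.0%, against 12.8% of all probe sets) and 0 lower, with a median of 0.47, against 0.43 for all probe sets with means of log2 3 to 4, where the list's median level lay (3.43). The 3 were nad1 (1.15, adjusted p = 0.011, 1 of 7 nad1 probe sets), nad9 (1.09, adjusted p = 0.0206) and nad6 (0.95, adjusted p = 0.018), all subunits of respiratory complex I. After loess scaling 0 passed in either direction and the median was 0.12, and without CSP1-IP replicate 2 the median of the deposited values was 0.04.

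Plastid-encoded genes were called lower or did not pass. Of 69 probe sets 28 were lower (40.6%) and 0 higher, with a median of −1.57, and 5 differences were positive. The list's median level was 8.12, and 41.3% of all probe sets with means of log2 8 to 9 were lower, with a median of −0.86. Among the 25 members above log2 9, 56.0% were lower (median −1.69), against 42.9% of all (median −0.81). After loess scaling 17 of the 69 were lower (24.6%) and 0 higher, with a median of −1.05. By comparison 6.59% of all probe sets were lower, and 19.3% of those with means of log2 8 to 9. Among the 25 members above log2 9, 32.0% were lower after loess scaling, against 20.8% of all that bright. The list medians by array were 5.64 and 6.03 in CSP1-IP, against 7.71 and 9.22 in total RNA, so the total replicates stood well apart in this group. Without total replicate 1 the median was −2.65 with 38 lower members, and without total replicate 2 it was −0.73 with 18. Neighbouring plastid genes often share 1 transcript, so the members are not independent of each other.

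By list median, the ATP synthase and photosystem II showed the largest deficits among the plastid complexes. All 6 ATP synthase probe sets had negative differences and 5 were called lower (83.3%, median −3.63). Of all probe sets with means of log2 8 to 9, where the list's median level lay (8.35), 41.3% were lower. After loess scaling 2 of the 6 were lower (33.3%, against 19.3%). On the deposited values atpH, the ring-forming subunit, was at −3.85 (adjusted p = 0.037) and atpI at −3.41 (adjusted p = 0.0242). Of 15 photosystem II probe sets 8 were lower (53.3%, against the same 41.3%, median −2.86), and 7 after loess scaling (46.7%, against 19.3%). Among the 7 members above log2 9, 42.9% were lower on the deposited values, as were 42.9% of all that bright. The 15 differences ran from −5.50 to −0.28. At the small end lay psbA, which encodes the reaction centre protein D1, at −0.48 (adjusted p = 0.814), a gene chosen after its value was seen whose difference turned to 0.31 after loess scaling. Of 5 photosystem I probe sets 2 were lower (median −1.10). These were psaB, a core subunit, with 9.03 and 8.34 in CSP1-IP, against 11.33 and 12.97 in total RNA (difference −3.46, adjusted p = 0.000304), and psaJ (−3.36, adjusted p = 0.000642).

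For the remaining plastid lists, shares are set beside those of all probe sets at each list's median level. Of 10 NDH probe sets 3 were lower (30.0%, against 32.3% for means of log2 7 to 8). These were ndhA, ndhI and ndhC (−1.06, adjusted p = 0.0318). ndhF, singled out after its value was seen, had a positive difference of 1.07 that did not pass (adjusted p = 0.13). In the cytochrome b6f complex 2 of 6 were lower (33.3%, against 24.7% for means of log2 6 to 7). These were petB and petA (−2.83, adjusted p = 0.0226), the gene of cytochrome f. Among plastid-encoded ribosomal proteins 5 of 15 were lower (33.3%, against 41.3% for means of log2 8 to 9, median −1.56). They included rpl22 at −4.25, rps2 at −3.44 and rpl33 at −2.71 (adjusted p = 0.000225). Of the other 8 plastid genes, cemA, the protease gene clpP (−1.96, adjusted p = 0.0451) and ccsA (−1.69, adjusted p = 0.0438) were lower (37.5%, against 45.6% for means of log2 9 to 10). After loess scaling 2 NDH, 1 cytochrome b6f and 2 plastid-encoded ribosomal protein probe sets were lower, and 1 of the other 8. rbcL, the large subunit of Rubisco, stood at −2.53 and did not pass (adjusted p = 0.0532), and it was likewise singled out after its value was seen. None of the 4 genes of the plastid RNA polymerase passed, of which rpoA (−1.43, adjusted p = 0.104) and rpoC1 (−1.24, adjusted p = 0.349) had the largest differences. Of the plastid genes named here, ndhC, petA, rps2, atpH, atpI, clpP and ccsA lost their calls after loess scaling.

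Of 34 listed nuclear genes of plastid ribosomal proteins, 9 had a named probe set. All 9 had negative differences, with 6 called lower (66.7%) and a median of −1.44. Among all probe sets above log2 9, 42.9% were called lower and the median was −0.81. AT1G64510 had 8.67 and 6.93 in CSP1-IP, against 11.00 and 10.93 in total RNA (difference −3.16, SE 0.29, adjusted p = 2.99e-08). Its difference was −2.34 after loess scaling and −2.29 without CSP1-IP replicate 2. AT4G17560 (−2.93, adjusted p = 5.42e-05) and AT3G13120 (−2.91, adjusted p = 0.000151) were close to it, and AT4G01310 was at −1.50 (adjusted p = 0.00127). After loess scaling the first 3 were still called (33.3%, against 20.8% of all probe sets above log2 9) and the group's median was −0.59.

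Of 11 nuclear photosynthesis genes, all above log2 9, 6 were lower (54.5%, against 42.9% of all probe sets that bright) and 0 higher (median −1.14, against −0.81). RCA, the activator of Rubisco, had 11.24 and 9.89 in CSP1-IP, against 13.40 and 13.36 in total RNA (difference −2.81, SE 0.30, adjusted p = 2.44e-07). Its difference was −1.97 after loess scaling and −2.14 without CSP1-IP replicate 2. ATPC1, the gamma subunit of the chloroplast ATP synthase, was at −1.84 (adjusted p = 8.06e-06). PRK, the phosphoribulokinase of the Calvin cycle, was at −1.84 (adjusted p = 0.00272) and PSBY, a small photosystem II protein, at −1.82 (adjusted p = 0.000405). The group moved with the scaling: after loess 3 were lower (27.3%, against 20.8%) and 1 higher, the median was −0.30, and PRK no longer passed (adjusted p = 0.0885).

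**Figure D3:**
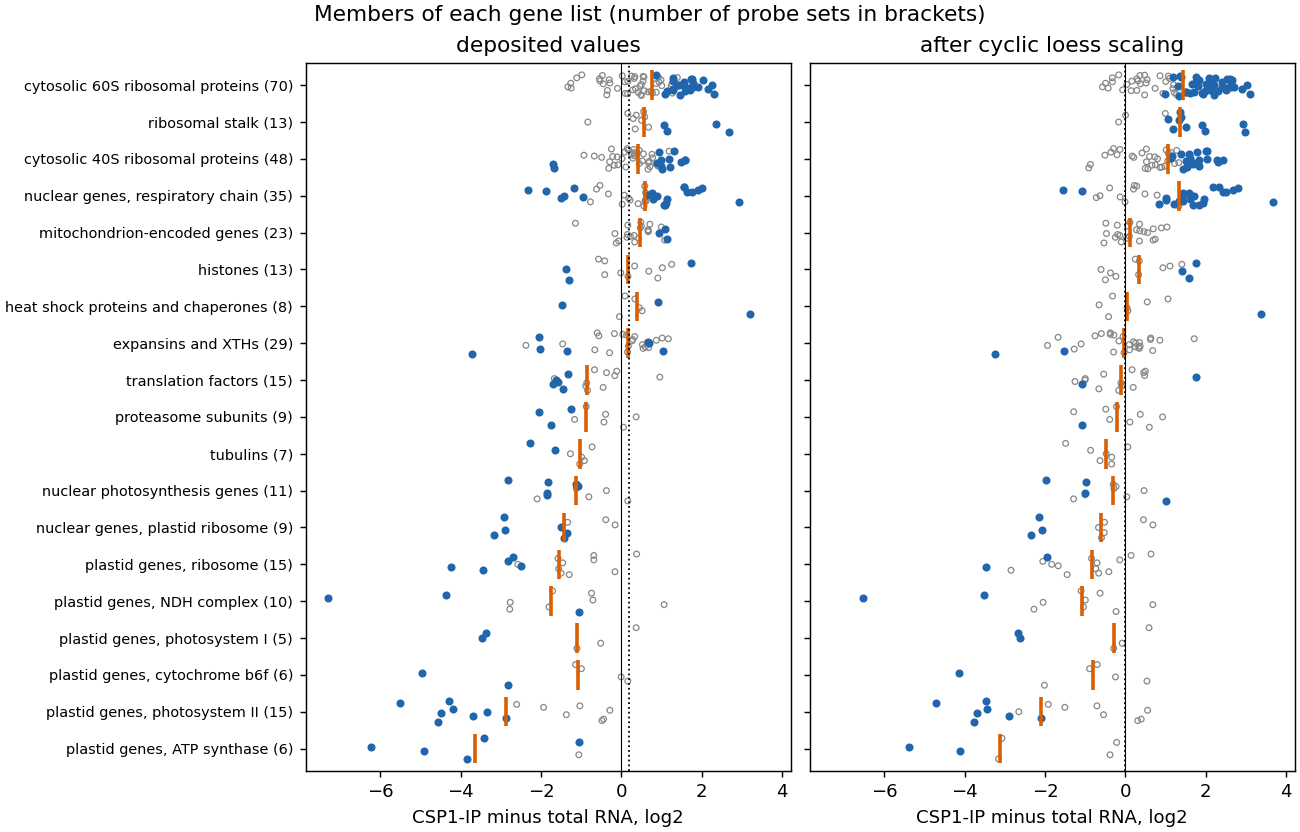
Differences between CSP1-IP and total RNA (log2) for the members of 19 gene lists, with deposited values on the left and after cyclic loess scaling on the right. Filled points passed an adjusted p of 0.05, orange bars are list medians and the dotted line is the median of all probe sets (0.20 and 0.00). The 60S list has medians of 0.76 and 1.44, and the plastid ATP synthase list medians of −3.63 and −3.11.

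mRNAs of translation factors were called lower at about the rate of their level. Of 15 probe sets for initiation and elongation factors 0 were higher and 5 lower (33.3%, median −0.86), against 32.3% lower and a median of −0.68 for all probe sets with means of log2 7 to 8, where the list's median level lay (7.23), and after loess scaling 1 was higher and 1 lower (median −0.11). AT1G77840 had 5.72 and 5.84 in CSP1-IP, against 7.48 and 7.49 in total RNA (difference −1.71, SE 0.41, adjusted p = 0.0033). It passed after loess scaling as well (−1.08, adjusted p = 0.0477), whereas AT1G36730 (−1.62), AT1G66070 (−1.59) and AT2G04520 (−1.45) did not. AT1G36730 had 6.97 and 4.83 in CSP1-IP, against 7.48 and 7.55 in total RNA, so its CSP1-IP replicates stood far apart. Without CSP1-IP replicate 2 its difference was −0.54 (adjusted p = 0.585).

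Tubulin and proteasome lists were also called lower at shares near or below those of their level, 28.6% of 7 tubulins (median level 9.19, where 45.6% of all probe sets with means of 9 to 10 were lower) and 33.3% of 9 proteasome subunits (median level 7.27, where 32.3% of all with means of 7 to 8 were). TUA6, an alpha-tubulin, had 8.56 and 7.40 in CSP1-IP, against 10.33 and 10.19 in total RNA (difference −2.28, SE 0.56, adjusted p = 0.00387). The beta-tubulin TUB9 was at −1.65 (adjusted p = 0.00563), and all 7 tubulin probe sets had negative differences (2 lower, median −1.03). After loess scaling 0 of the 7 passed and the median was −0.47. Of 9 proteasome subunit genes 3 were lower and 0 higher (median −0.87), AT4G24820 (−2.05, adjusted p = 0.00442), AT1G79210 (−1.75, adjusted p = 0.000935) and AT5G23540 (−1.25, adjusted p = 0.00355). AT1G79210 was the 1 that passed after loess scaling (−1.07, adjusted p = 0.0253).

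Several lists held single members with large differences. EXPA4, an expansin that loosens cell walls, had 4.14 and 3.58 in CSP1-IP, against 7.65 and 7.51 in total RNA (difference −3.72, SE 0.47, adjusted p = 3.29e-06). EXPA16 (−2.06), EXGT-A3 (−2.04) and EXPB1 (−1.36) were lower too, among 29 expansin and xyloglucan-modifying genes. Of this list 3 were higher (10.3%) and 4 lower (13.8%), near the 12.8% and 12.4% of all probe sets. For means of log2 4 to 5, where the list's median level lay (4.24), the shares were 9.87% and 5.39%. The median of that list was 0.18 and turned to −0.03 after loess scaling, where EXPA4 (−3.24, adjusted p = 1.8e-05) and EXPB1 (−1.54, adjusted p = 0.0212) passed. Of 13 histone genes AT5G02570 was higher (1.73, adjusted p = 0.00509) while AT1G06760 (−1.38, adjusted p = 0.0153) and AT2G30620 (−1.30, adjusted p = 0.035) were lower. These are 7.69% higher and 15.4% lower. Of all probe sets with means of log2 7 to 8, where the histone list's median level lay (7.66), 8.17% were higher and 32.3% lower. The lower pair did not pass after loess scaling.

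Of 8 heat shock and chaperone genes AT1G54050 and ATHSP22.0, a small heat shock protein (0.91, adjusted p = 0.0196), were higher and AT3G09440 was lower (−1.47, adjusted p = 0.0306). The shares were 25.0% higher and 12.5% lower, against 12.8% and 12.4% of all probe sets. Only AT1G54050 passed after loess scaling. AtRZ-1c, a glycine-rich RNA-binding protein with a zinc finger, had 4.98 and 5.77 in CSP1-IP, against 7.04 and 6.72 in total RNA (difference −1.51, SE 0.36, adjusted p = 0.00307). It did not pass after loess scaling (−0.82, adjusted p = 0.158). Of 4 DEAD-box helicase and ribosome assembly genes RH39 was lower (−2.17, adjusted p = 0.0313), also without a call after loess scaling (−2.03, adjusted p = 0.0521). That is 25.0% of the list, against 12.4% of all probe sets. The other 3 differences were positive (list median 0.36), and after loess scaling 1 of the 4 was higher and 0 lower (median 0.60).

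Cold acclimation genes were read here in plants that had not been chilled. COR15A and COR15B encode proteins that protect chloroplast membranes during freezing. COR15A had 7.91 and 7.61 in CSP1-IP, against 10.79 and 9.56 in total RNA (difference −2.41, SE 0.81, adjusted p = 0.0307). COR15B had 8.19 and 7.73 in CSP1-IP, against 9.76 and 10.32 in total RNA (difference −2.08, SE 0.47, adjusted p = 0.00215). Both lay below total RNA on every array, and neither passed after loess scaling (adjusted p = 0.194 for COR15A and 0.0623 for COR15B). The call of COR15A was lost without total replicate 1 (adjusted p = 0.12), CSP1-IP replicate 1 (adjusted p = 0.126) or CSP1-IP replicate 2 (adjusted p = 0.244), and that of COR15B without CSP1-IP replicate 2 (adjusted p = 0.0874). The list of 5 had a median of −0.03, which was 0.79 after loess scaling. The early stress genes STZ (1.91, adjusted p = 0.111) and WRKY53 (1.27, adjusted p = 0.128), both transcription factors, did not pass.

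Markers of other cell types were few among the named probe sets. The guard cell markers AT1G22690 (1.08, adjusted p = 0.0785) and FMA (3.12 and 4.15 in CSP1-IP, against 4.68 and 4.61 in total RNA, adjusted p = 0.0683) had differences of opposite sign that did not pass with the deposited values, but both passed after loess scaling (1.85, adjusted p = 0.00539, and −1.22, adjusted p = 0.0383). TRY, a trichome patterning gene, was at 0.59 (adjusted p = 0.701), and EXPA7, a root hair expansin, at 0.60 (adjusted p = 0.108). Both RNA pools came from whole rosettes, so these values do not show from which cells an RNA was recovered.

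The same CSP1-IP arrays were also set against polysomal RNA of CSP1-FH, the RNA on at least 2 ribosomes. The fit called 4890 probe sets (21.5%), 2340 higher (10.3%) and 2550 lower (11.2%), and after loess scaling 3457 (15.2%), 2011 higher (8.84%) and 1446 lower (6.36%). This comparison shares its CSP1-IP arrays with the one above, so the values are given side by side and not as a separate line of evidence. DI21 differed by 4.69 from polysomal and by 4.71 from total RNA, AT2G35750 by 4.91 and 4.16, ndhA by −6.32 and −7.31, and atpB by −6.13 and −6.23. The cytosolic ribosomal protein list had a median of 0.36 against polysomal RNA (25 higher and 6 lower) and the plastid-encoded list one of −0.82 (0 higher and 20 lower). After loess scaling the medians were 1.09 (62 higher and 0 lower) and −0.30 (1 higher and 9 lower). The 15 largest excesses and the 15 largest deficits were all called in the same direction against polysomal RNA.

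Arrays of HF-RPL18, which share no RNA sample with those of CSP1-FH, measured the same difference with 3 CSP1-IP and 3 total arrays. There 5058 probe sets were called (22.2%), and 4026 after loess scaling (17.7%). Of the 1283 probe sets called higher in both scalings in CSP1-FH, 71.7% were called higher in HF-RPL18 and 0 lower, where 9.8% of all probe sets were called higher. Of the 1403 called lower, 89.7% were called lower in HF-RPL18 and 0 higher, where 12.4% of all probe sets were called lower. After loess scaling the shares were 71.8% and 75.1%, where 9.81% and 7.89% of all probe sets were called. The GAPDH and ubiquitin gaps were wide on all 10 CSP1-IP arrays of the series, at 5.02 to 7.60 for GAPDH, against 1.05 to 1.99 on the 14 total arrays, and at 2.30 to 3.84 for ubiquitin, against 1.18 to 1.73. The actin gaps overlapped, at 2.78 to 4.35 against 3.31 to 4.19. The part of these gaps in the shared calls was not tested.

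By gene, DI21 showed 4.66 in HF-RPL18, at 9.77 ± 0.95 in CSP1-IP and 5.12 ± 0.32 in total RNA (SD, n = 3 each). AT2G35750 showed 3.66, at 9.19 ± 0.43 in CSP1-IP and 5.53 ± 0.20 in total RNA, and ndhA showed −6.77, at 4.14 ± 1.14 in CSP1-IP and 10.90 ± 0.05 in total RNA. Each of the 15 largest excesses and 15 largest deficits of CSP1-FH was called in the same direction in HF-RPL18. By list, 50 of the 131 cytosolic ribosomal protein probe sets were higher and 0 lower there (median 0.69), 18 and 5 of the 35 respiratory genes (median 0.74), and 0 and 42 of the 69 plastid-encoded genes (median −2.33), beside the 9.8% higher and 12.4% lower of all probe sets. After loess scaling the ribosomal list had 84 higher and 0 lower (median 1.18), the respiratory list 22 and 1 (median 1.22), and the plastid-encoded list 0 and 27 (median −2.00).

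**Figure D4:**
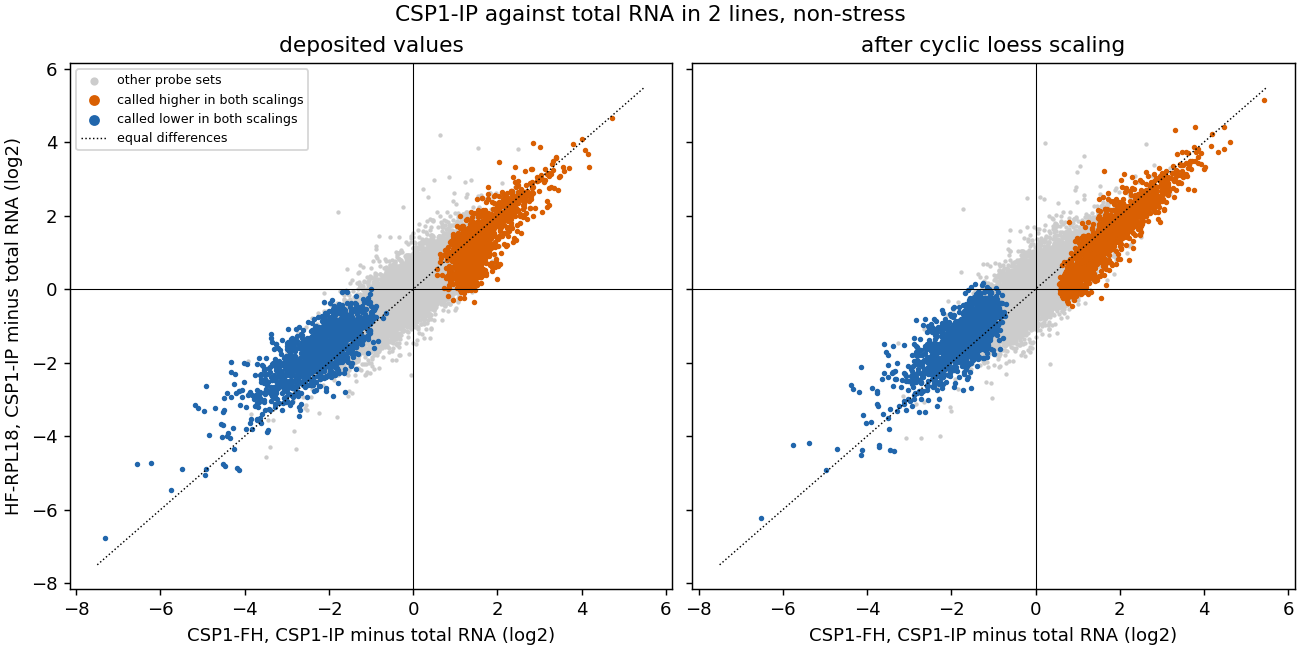
Difference between CSP1-IP and total RNA (log2) in CSP1-FH on the x axis and in HF-RPL18 on the y axis for 22746 probe sets, with deposited values on the left and after cyclic loess scaling on the right. The 1283 probe sets called higher (orange) and 1403 called lower (blue) in both scalings in CSP1-FH lie mostly in the matching quadrant, with 71.7% and 89.7% also called in HF-RPL18 on the deposited values.

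The difference between the lines was tested as an interaction, CSP1-IP minus total RNA in CSP1-FH minus the same in HF-RPL18. 1 probe set passed (0.0044%), and 1053 (4.63%) had an unadjusted p below 0.05. This probe set, 266901_at, has no gene name here. It had 3.08 and 3.51 in CSP1-IP of CSP1-FH, against 2.57 and 2.73 in its total RNA, whereas HF-RPL18 had 6.63, 6.91 and 6.71 in CSP1-IP and 2.52, 2.57 and 2.56 in total RNA. The difference of the differences was −3.56 (SE 0.32, adjusted p = 3.89e-07). After loess scaling 2 passed (0.00879%), and the added one, 253259_at, has no name either (−2.67, adjusted p = 0.0432). For named genes the largest excesses and deficits above did not pass, with DI21 at 0.05 (adjusted p = 1), ndhA at −0.54 (adjusted p = 1) and atpB at −1.51 (adjusted p = 0.967), and a p that misses the threshold does not show equal differences.

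After 12 h at 4 °C, CSP1-IP of CSP1-FH set against its own total RNA gave 3786 calls (16.6%), 1766 higher (7.76%) and 2020 lower (8.88%), and 2367 after loess scaling (10.4%), 1259 higher (5.54%) and 1108 lower (4.87%). In these chilled plants DI21 stood at 10.88 ± 0.50 in CSP1-IP and 8.12 ± 0.76 in total RNA (SD, n = 2 each), a difference of 2.77. In non-stress, DI21 had 10.08 and 11.02 in CSP1-IP, against 5.91 and 5.77 in total RNA. ndhA stood at 5.26 ± 1.02 in CSP1-IP and 10.84 ± 0.08 in total RNA in the cold (difference −5.58). The cytosolic ribosomal protein list had 17 higher and 3 lower members in the cold (median 0.34), and the plastid-encoded list 0 higher and 16 lower (median −1.09). After loess scaling these were 43 higher and 0 lower (median 0.80), and 0 higher and 8 lower (median −0.79).

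The difference between conditions was tested in the same way within CSP1-FH, with CSP1-IP minus total RNA in non-stress minus the same in the cold. 1 probe set passed (0.0044%), and 1165 (5.12%) had an unadjusted p below 0.05. 265007_s_at, without a gene name, had 2.99 and 3.15 in CSP1-IP in non-stress, against 2.46 and 2.35 in total RNA, and 5.70 and 5.61 in CSP1-IP in the cold, against 2.49 and 2.53 in total RNA. The difference of the differences was −2.48 (SE 0.34, adjusted p = 0.00198). After loess scaling 2 passed (0.00879%), the added one being 264511_at (3.31, adjusted p = 0.0301). It had 3.49 and 4.24 in CSP1-IP in non-stress, against 3.70 and 3.36 in total RNA, and 9.03 and 9.38 in CSP1-IP in the cold, against 11.94 and 12.03 in total RNA, so that its total RNA itself was far higher in the cold.

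Ribosome loading was read as polysomal minus total RNA, from arrays that entered the comparison only through the shared estimate of spread. In HF-RPL18 the probe sets called higher in CSP1-IP in both scalings had a median loading of 0.02 and those called lower one of −0.18, against 0.02 for all probe sets (log2). In the mutant atcsp1-1 the medians were −0.01 and −0.13, against 0.03 for all. Of the lower set, 13.6% were called lower on polysomes in HF-RPL18, where 4.83% of all probe sets were (7.43% in either direction), and 4.06% were called higher, where 2.6% were. Of the higher set, 3.2% were called higher and 4.68% lower on polysomes, shares near those of all probe sets. The lower set had a median level of 7.65 in total RNA of HF-RPL18, against 4.47 for all probe sets, and the part of level in these shares was not tested.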

How the data were processed

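Each probe set of the Affymetrix ATH1 arrays has a log2 value that the authors made with RMA, per the submitters' processing notes. Which arrays were normalised together is not given in the sources used here. Both these values as they stand and values after cyclic loess scaling of all 38 arrays (limma normalizeCyclicLoess, 3 iterations) were analysed. After leaving out 64 control probe sets, limma 3.58.1 in R 4.3.3 was fitted with 16 group means over all 38 arrays, with a variance that differed by RNA pool (22 residual and 4.32 prior degrees of freedom), 2-sided p-values and Benjamini-Hochberg adjustment over 22746 probe sets. For arrays, the number of replicates limits the precision. The fit was tested on simulated data for CSP1-IP minus total RNA in non-stress CSP1-FH, with 200 changed probe sets. It recovered 14 of 50 probe sets changed by a log2 of 1 and 39 of 50 changed by 2. For changes of 3 and 4 it recovered 47 and 49 of 50. It also made 39 false calls, a larger share of its calls than the adjusted p threshold allows. Whether the same share holds for the calls reported here was not tested. Replicates are called biological in the labels.

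Annotation gave 1 gene for 13513 probe sets, several for 503 and no entry for 8730. Named genes were the 15 largest excesses and 15 largest deficits among calls without overlap of arrays (adjusted p below 0.05), up to 4 called members per list (2 where none passed), and up to 5 per direction for differences of differences. The reference tables hold no product names, so most list members were entered as locus codes from general knowledge. Named probe sets covered only part of these lists. They covered 70 of 122 listed 60S genes, 48 of 94 40S genes, 35 of 59 respiratory genes and 9 of 34 nuclear genes of plastid ribosomal proteins. For nuclear photosynthesis it was 11 of 58, for translation factors 15 of 52 and for the proteasome 9 of 51. Members and lists were chosen with earlier results of these data known. 3 lists, aquaporins, phloem and inflorescence markers, had 0 named probe sets, and a protein kinase list could not be formed. The level of log2 9 was chosen after seeing the data. Gene lengths and sequences were not used here.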

Additional observations from a re-analysis of the deposited data

Results flagged for a closer look

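266901_at, a probe set without a gene name here, differed between the lines: CSP1-IP minus total RNA was 0.64 in CSP1-FH and 4.20 in HF-RPL18, a difference of −3.56 by the interaction test in limma (adjusted p = 3.89e-07). It passed under both scalings.

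265007_s_at, also unnamed, differed between conditions within CSP1-FH: CSP1-IP minus total RNA was 0.67 in non-stress and 3.15 in the cold, a difference of −2.48 by the interaction test (adjusted p = 0.00198). The count of calls in this comparison was 0 without either CSP1-IP array of the cold group.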

How the results depend on the processing

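With 2 arrays a group, single arrays and the scaling set most of the limits: the immunopurified replicates spread more than the total replicates, and the count of higher calls rested on dim probe sets. In the comparison with total RNA, loess scaling gave 3441 calls (1943 higher and 1498 lower), an unadjusted p below 0.05 gave 8655 (4849 higher), and leaving out 1 array gave 1645 to 4936 (708 to 2381 higher and 937 to 2555 lower). Higher calls numbered 1526 with the groups fitted alone, 952 with a mean of at least log2 5 and 1667 with at least 2-fold. Against polysomal RNA a shared spread gave 7492 calls (3830 higher), the groups alone 1543 higher, a mean of at least log2 5 1070 higher, loess scaling 1446 lower, and leaving out 1 array 1539 to 4285 (643 to 2004 higher and 896 to 2281 lower).

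The difference between lines gave 2 calls after loess scaling, 6 with a shared spread, 3 with a weight per array, 0 with a mean of at least log2 5 (1053 at an unadjusted p over all probe sets, limma), and 1 to 12 without 1 array. The difference between conditions gave 2 after loess scaling, 23 with a shared spread, 6 with a weight per array, 2 with the groups alone, 2 with the line alone, 3 with a mean of at least log2 5, and 0 to 8 without 1 array.

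Same-numbered arrays of the 2 groups are not shown to be paired (r of deviations 0.16, from replicate 1 of each). With a replicate block 5917 probe sets were called against total RNA (2797 higher and 3120 lower), 5297 against polysomal RNA, 1 between lines and 3 between conditions, and 97 of the 98 named results kept their direction and their side of the threshold.

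List medians after loess scaling were 1.28 for cytosolic ribosomal proteins, −0.59 for nuclear plastid ribosomal proteins, −0.30 for photosynthesis, −0.11 for translation factors, −0.22 for the proteasome, 1.33 for respiration, 0.05 for heat shock, −0.47 for tubulins, −0.03 for expansins, 0.60 for DEAD-box helicases and 0.79 for the CBF regulon. With a mean of at least log2 5 they were −0.41 for histones (9 probe sets), −0.66 for expansins (11) and 0.20 for DEAD-box helicases (3). Of the early stress genes 1 probe set was left at that level, with a difference of 1.90 that did not pass. Without 1 array the list medians ran from 0.13 to 0.50 for heat shock, 0.11 to 0.32 for expansins and 0.08 to 0.38 for DEAD-box helicases. TRY ran from −0.22 without total replicate 2 to 1.40 without total replicate 1. The causes were not tested. Of the named genes' values over all alternatives, 902 kept direction and side of the threshold, 145 lost the call, 18 gained it and 1 changed sign.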
